A study of Mus musculus with 42 samples.

Results

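The Yap, Tead and Vgll genes described here are 10 of the 24466 gene symbols counted by RNA-seq in myogenic precursor cells. They were chosen by gene symbol. They are the co-activators Yap1 and Wwtr1 (the gene for Taz), the DNA-binding partners Tead1, Tead2, Tead3 and Tead4, the Tead cofactor Vgll2, and the target genes Ctgf, Cyr61 and Ankrd1. Ctgf and Cyr61 are the older symbols of Ccn2 and Ccn1 and are the names the files use. RNA was sequenced from 3 groups of mouse cells. The +Dox group, with 3 replicates, is iPax7 cells kept in 0.75 µg/ml doxycycline (Dox), which drives an inducible Pax7 transgene in a single mouse embryonic stem cell line. The growth protocol in the labels gives the same figure in mg/ml. Precursors had been sorted from embryoid bodies on day 5 as PDGFαR+Flk-1- cells. The -Dox group, with 2 replicates, is the same cells 3 days after Dox was withdrawn, in the same serum medium with FGF. The third group, with 3 replicates, is satellite cells, the stem cells of adult muscle, freshly sorted from Pax7-ZsGreen reporter mice. The ages and number of the mice are not given in the sources used here. The study asked how Pax7 shapes the precursor state and how near the iPax7 cells are to satellite cells.

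Yap1 and Taz are the outputs of the Hippo pathway. When the kinases Lats1 and Lats2 phosphorylate them they are held in the cytoplasm, and otherwise they enter the nucleus and bind Tead proteins, which carry the DNA-binding domain. Vgll proteins bind the same face of Tead and can compete with Yap1 and Taz. In muscle, Tead proteins bind the M-CAT element, found in many contractile genes, and Yap1 is best known there for holding satellite cells in proliferation. Ctgf and Cyr61 encode secreted matricellular proteins, and Ankrd1 encodes a nuclear and sarcomeric ankyrin-repeat protein. Much of the control of Yap1 and Taz is by phosphorylation and location, which RNA counts do not measure.

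Each replicate held between 39010958 and 54674619 counts on genes. Levels are given as normalized counts, which are counts brought to a common library size, and differences as log2 fold changes, with p-values adjusted over all genes tested and called at 0.05. Reads that aligned to several places and were set aside made up 7.11 to 7.60% of reads in the iPax7 replicates and 23.6 to 30.7% in satellite cells. For Pax7 itself the mean was 12833 normalized counts (SD 1261, n = 3) with Dox and 245.1 (SD 34.6, n = 2) after its withdrawal, while satellite cells had 5962 (SD 2331, n = 3). All 8 markers of differentiating muscle were higher in -Dox than in +Dox, and all 6 cell cycle genes were lower. All 6 were lower in satellite cells than in +Dox too. Their median log2 fold change against +Dox was -3.57 in -Dox and -4.84 in satellite cells. The satellite cell libraries held the myogenic precursor markers. Of the 8, 6 were called higher than in +Dox, where 25.1% of all genes were. Calcr, Myod1, Itga7 and Cd34 had the largest changes. Pax7 was called lower (log2 fold change -1.11) and Myf5 was not called (-0.23). These libraries also held markers of other cells of muscle. The 7 endothelial markers summed to between 17819.6 and 23119.6 normalized counts per replicate in satellite cells, and in iPax7 cells to between 114.0 and 950.7, where Cdh5 was at 0 in all 5 replicates. Of the 7 fibroblast and fibro-adipogenic markers, Ly6a was not called higher in satellite cells. Its mean was 2623 normalized counts there, against 5063 in +Dox and 1418 in -Dox. The 7 together gave sums from 72203 to 139319.6 in satellite cells, against 4144 to 12598 in iPax7 cells. In the same order, sums were 13139.8 to 25861 against 46.4 to 677.3 for the 6 smooth muscle and pericyte markers, and 1314 to 3905 against 157.5 to 463.6 for the 6 immune markers. Ptprc was at 0 in every iPax7 replicate. The 10 immediate early and stress genes had sums from 395972 to 1002232 in satellite cells, against 4375 to 5079 in iPax7 cells, and all 10 were higher in satellite cells than in each iPax7 group. The part of these other cells and of the stress genes in the satellite cell values below was not tested. In bulk RNA, fewer cells of a type and less RNA per cell cannot be told apart. Cell source and library preparation cannot be told apart either.

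The promoters of the member genes were read first, because Tead proteins act through short DNA sites. The RefSeq promoter table for GRCm38.p6 (250 bases before to 50 after a start site) held 7 of the 10 members. Ctgf, Tead1 and Tead4 had no entry. The M-CAT core CATTCC, on either strand, was present in a promoter of 5 of the 7, Ankrd1, Cyr61, Wwtr1, Yap1 and Tead3, and in 14.7% of all 32851 promoters, or for 16.6% of genes. The AP-1 site TGANTCA, which reads the same on both strands, was present in 7.81% of all promoters and in none of the members' windows. The promoters of both co-activators and of the 2 target genes in the table are printed, since Tead sites in target promoters are the textbook case, and that of Tead2 is added because its accessibility differed between the peak sets described further on. They are printed 5′ to 3′ on the strand of the gene, with the M-CAT core in capitals.
Ankrd1 promoter, chr19:36194285-36194584 of NCBIM37, minus strand: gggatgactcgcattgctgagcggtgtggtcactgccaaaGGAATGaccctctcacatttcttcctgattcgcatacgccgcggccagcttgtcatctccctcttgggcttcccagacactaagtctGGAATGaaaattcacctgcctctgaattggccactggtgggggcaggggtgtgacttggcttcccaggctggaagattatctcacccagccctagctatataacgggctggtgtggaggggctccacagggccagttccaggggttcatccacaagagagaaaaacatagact
Cyr61 promoter, chr3:145312900-145313199 of NCBIM37, minus strand: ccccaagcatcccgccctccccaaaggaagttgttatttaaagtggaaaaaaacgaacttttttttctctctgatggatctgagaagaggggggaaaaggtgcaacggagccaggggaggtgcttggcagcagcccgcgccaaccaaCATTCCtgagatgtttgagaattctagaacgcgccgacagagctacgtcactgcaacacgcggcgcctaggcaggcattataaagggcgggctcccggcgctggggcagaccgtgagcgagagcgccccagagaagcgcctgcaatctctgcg
Wwtr1 promoter, chr3:57379749-57380048 of NCBIM37, minus strand: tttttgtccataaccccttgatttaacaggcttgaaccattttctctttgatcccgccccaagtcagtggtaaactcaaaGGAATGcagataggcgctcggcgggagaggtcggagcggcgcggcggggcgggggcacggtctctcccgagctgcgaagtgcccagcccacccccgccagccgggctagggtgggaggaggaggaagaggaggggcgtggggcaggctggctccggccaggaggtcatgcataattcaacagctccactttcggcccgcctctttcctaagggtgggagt
Yap1 promoter, chr9:8004547-8004846 of NCBIM37, minus strand: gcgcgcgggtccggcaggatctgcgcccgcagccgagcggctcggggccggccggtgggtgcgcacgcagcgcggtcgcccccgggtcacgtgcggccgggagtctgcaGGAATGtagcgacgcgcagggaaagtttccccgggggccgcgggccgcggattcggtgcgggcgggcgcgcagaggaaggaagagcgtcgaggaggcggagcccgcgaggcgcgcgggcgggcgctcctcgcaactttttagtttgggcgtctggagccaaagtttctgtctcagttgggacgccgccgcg
Tead2 promoter, chr7:52470912-52471211 of NCBIM37, plus strand, with no M-CAT core: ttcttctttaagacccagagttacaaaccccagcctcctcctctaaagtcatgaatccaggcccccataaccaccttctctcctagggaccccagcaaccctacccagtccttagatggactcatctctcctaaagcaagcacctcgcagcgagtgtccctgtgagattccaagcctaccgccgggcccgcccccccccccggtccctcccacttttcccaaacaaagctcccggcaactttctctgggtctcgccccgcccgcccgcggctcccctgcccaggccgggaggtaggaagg
The NCBIM37 positions come from exact matches of the RefSeq sequences to that build, the build of the peak files, and each sequence matched its chromosome once. Ankrd1 held 2 cores, whose first bases lay at -210 and -123 from the start site, and Cyr61 held 1, at -103. A match is a description of letters, not evidence of binding.

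All 10 members passed the filter on low counts. After 3 days without Dox, 3 of them were called at an adjusted p under 0.05, all higher (edgeR's quasi-likelihood test over 14836 genes), where 4.66% of all genes tested were called higher, 3.04% lower and 7.70% in either direction. They were Wwtr1, Vgll2 and Ankrd1. The median log2 fold change was 0.58 over the members and -0.00 over all genes tested. In satellite cells against +Dox, 6 members were called, 5 higher (Wwtr1, Tead3, Vgll2, Ctgf and Cyr61) and 1 lower (Tead2), beside 25.1% of all genes called higher, 19.8% lower and 44.9% in either direction. In satellite cells against -Dox, 7 were called, 4 higher (Tead3, Vgll2, Ctgf and Cyr61) and 3 lower (Tead2, Tead4 and Ankrd1), beside 20.9% higher, 18.1% lower and 39.0% in either direction. The members' median log2 fold change was 1.53 beside 0.17 for all genes in the former and 0.56 beside 0.23 in the latter. The 3 comparisons share replicates and are not independent. Without any 1 of +Dox replicate 1, +Dox replicate 2, -Dox replicate 1 or -Dox replicate 2, the count of 3 after Dox withdrawal fell to 1, Ankrd1. The labels do not say that replicates came from separate cultures or animals, so p-values measure only the spread between these libraries.

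**Figure D1:**
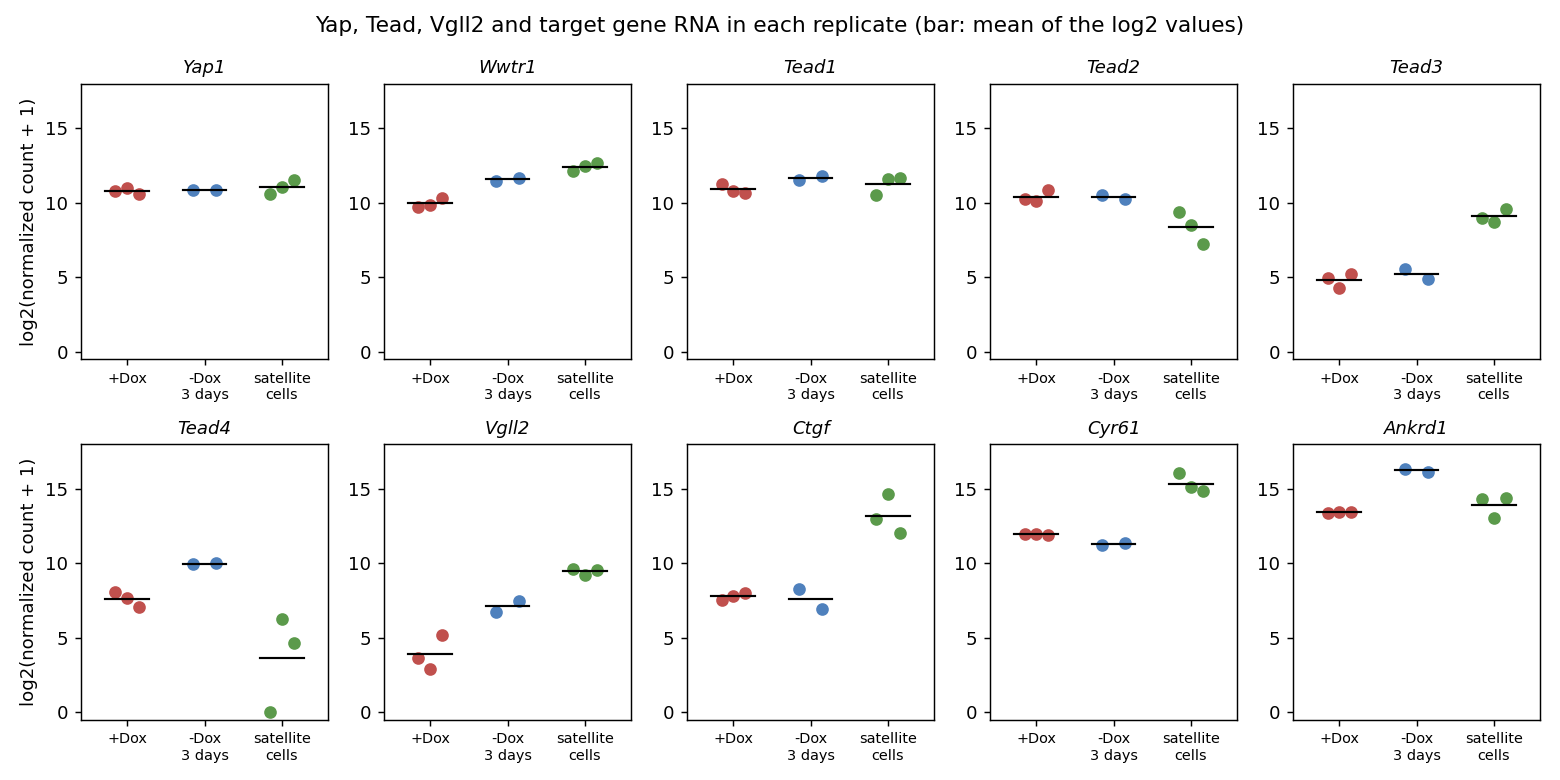
Each panel plots log2(normalized count + 1) of 1 gene, with 1 point per replicate of +Dox (red, 3), -Dox at 3 days (blue, 2) and satellite cells (green, 3) and a bar at the mean of the log2 values. The Yap1 values of the 3 groups overlap, the Wwtr1 and Vgll2 values are lowest in +Dox and highest in satellite cells, Tead4 and Ankrd1 are highest in -Dox, and Tead3, Ctgf and Cyr61 are highest in satellite cells.

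Yap1 RNA did not separate the groups. Yap1 (chr9:7931999-8004596 of NCBIM37, minus strand) had 1797, 2037 and 1571 normalized counts in the +Dox replicates, 1858 and 1852 in -Dox, and 1524, 2147 and 2966 in satellite cells. The ranges of all 3 groups overlapped. Its log2 fold change was 0.04 (standard error 0.34, adjusted p = 1) in -Dox against +Dox, with an approximate 95% interval from -0.72 to 0.80. It was 0.30 (interval -0.38 to 0.98, adjusted p = 0.452) in satellite cells against +Dox and 0.25 (interval -0.51 to 1.02, adjusted p = 0.580) in satellite cells against -Dox.

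Wwtr1, which encodes Taz, rose when Dox was withdrawn and was higher in satellite cells than in +Dox. Wwtr1 (chr3:57259571-57379832, minus strand) had 851.1, 914.5 and 1296 normalized counts in +Dox, 2820 and 3291 in -Dox, and 4407, 5742 and 6548 in satellite cells. No 2 groups overlapped. The log2 fold change was 1.58 in -Dox against +Dox (standard error 0.30, 2.99-fold, adjusted p = 0.0124) and 2.45 in satellite cells against +Dox (standard error 0.29, 5.45-fold, adjusted p = 0.0002). Satellite cells and -Dox differed by 0.87 (standard error 0.31), which did not pass (adjusted p = 0.0527). The call after Dox withdrawal was lost without +Dox replicate 1 (adjusted p = 0.0563), +Dox replicate 2 (0.0644), -Dox replicate 1 (0.0635) or -Dox replicate 2 (0.116). The difference between satellite cells and -Dox passed without +Dox replicate 3 (0.0297) or satellite cells replicate 1 (0.0267), and in DESeq2 (0.0233). Per kilobase of exon, Wwtr1 was 52.0% (SD 8.3, n = 3) of the sum of Yap1 and Wwtr1 with Dox, 76.1% (SD 2.0, n = 2) without it, and 83.2% (SD 2.0, n = 3) of that sum for satellite cells.

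The Tead family, which supplies the DNA binding of the complex, differed in makeup between the groups. Summed per kilobase of exon, the 4 Tead genes had 535.3 normalized counts per kb (SD 68.7, n = 3) with Dox, 864.6 (SD 5.7, n = 2) without it, and 452.6 (SD 57.5, n = 3) as satellite cells. Tead2 held the largest mean share of that sum in +Dox, 55.8% (SD 11.4, n = 3), ahead of Tead1 at 32.4% (SD 7.8). That order rests on division by merged exon length, 4.668 kb for Tead2 and 11.235 kb for Tead1. Before it, the +Dox means were 1404 normalized counts for Tead2 and 1933 for Tead1. In -Dox, Tead1, Tead2 and Tead4 had near-equal shares of 33.2% (SD 3.6), 33.1% (SD 4.2) and 32.8% (SD 1.0, n = 2), and Tead3 had 0.98% (SD 0.36). In satellite cells Tead1 made up 33.8%, 59.4% and 57.4%, Tead2 36.7%, 16.1% and 6.34%, Tead3 29.5%, 20.0% and 34.9%, and Tead4 0%, 4.44% and 1.32%. Satellite cells replicate 1 had the least Tead1 and the most Tead2 of the 3. These shares are a description with no test.

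**Figure D2:**
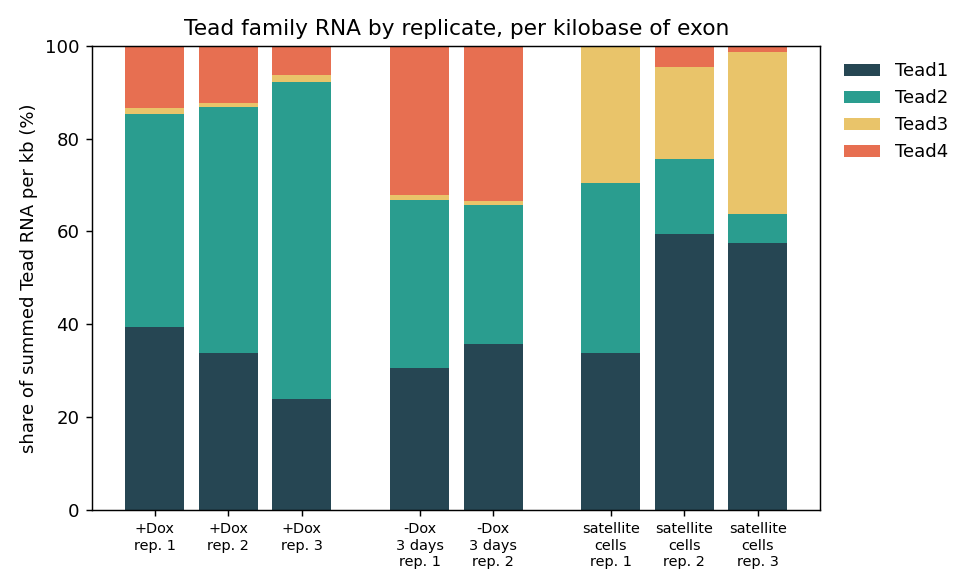
Stacked bars give the share of each Tead gene in the summed Tead RNA per kilobase of exon (%), 1 bar per replicate. Tead3 is at most 1.37% in the iPax7 replicates and at least 20.0% in satellite cells, and Tead4 goes from at most 13.4% in +Dox to at least 32.1% in -Dox.

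Tead1, the Tead gene most often linked to muscle gene control, passed no test. Tead1 (chr7:119822832-120050319, plus strand) had 2476, 1736.5 and 1585 normalized counts in +Dox, 2962 and 3484 in -Dox, and 1474, 3143 and 3218 in satellite cells. Both -Dox replicates lay above all 3 of +Dox, by 0.74 on the log2 scale (standard error 0.38, adjusted p = 0.311). Satellite cells replicate 1 lay below every other library. The satellite cell differences were 0.43 against +Dox (adjusted p = 0.335) and -0.30 against -Dox (adjusted p = 0.559).

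Tead2, known from embryonic tissues, was lower in satellite cells than in either iPax7 group. Tead2 (chr7:52471123-52489005, plus strand) had 1202, 1133 and 1876 normalized counts in +Dox, 1448 and 1220 in -Dox, and 664.8, 353.9 and 147.7 in satellite cells. The 3 satellite cell values differed widely and all lay below the 5 iPax7 values. On the log2 scale the difference was -1.85 against +Dox (standard error 0.52, adjusted p = 0.0172) and -1.78 against -Dox (standard error 0.56, adjusted p = 0.0309). The former call was lost without +Dox replicate 3 (adjusted p = 0.0565) or satellite cells replicate 2 (0.0501), and the latter without -Dox replicate 1 (0.135), -Dox replicate 2 (0.0798) or satellite cells replicate 2 (0.0730) and in a fit of those 2 groups alone (0.0558). Without satellite cells replicate 1 the estimates were -2.48 and -2.41. After Dox withdrawal the difference was -0.07 (interval -1.33 to 1.19, adjusted p = 1).

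Tead3 was low in iPax7 cells and higher in satellite cells. Tead3 (chr17:28468616-28487750, minus strand) had 29.3, 18.5 and 35.5 normalized counts in +Dox, 46.9 and 27.7 in -Dox, and 504.2, 414.2 and 766.3 in satellite cells. The iPax7 values overlapped, and the lowest satellite cell value lay above all of them. Satellite cells were higher by 4.33 on the log2 scale against +Dox (standard error 0.65, 20.2-fold, adjusted p = 0.000738) and 3.91 against -Dox (standard error 0.76, 15.0-fold, adjusted p = 0.00336). These calls held without any 1 replicate. The gene was 0.42 higher in -Dox than in +Dox on the log2 scale (standard error 0.64, adjusted p = 0.802).

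Tead4, a Tead gene known as a target of myogenic factors in differentiating myoblasts, was lower in satellite cells than in -Dox, the group with the highest values. Tead4 (chr6:128174306-128250841, minus strand) had 270.4, 202.2 and 134.8 normalized counts in +Dox, 992.5 and 1046 in -Dox, and 0, 75.1 and 23.7 in satellite cells. No 2 groups overlapped. The count of 0 in satellite cells replicate 1 allows up to 3 counts, or 3.95 normalized counts. The log2 fold change was 2.33 in -Dox against +Dox (standard error 1.13, 5.03-fold), which did not pass (adjusted p = 0.274). It passed in the fit of those 2 groups alone (adjusted p = 0.00688) and without satellite cells replicate 1 (0.0425). Between satellite cells and -Dox it was -4.95 (standard error 1.25, adjusted p = 0.0120), and -4.36 and -6.41 without satellite cells replicate 1 and replicate 2. Between satellite cells and +Dox it was -2.62 (standard error 1.09, adjusted p = 0.0769). That difference passed without satellite cells replicate 1 (-2.03, adjusted p = 0.0316), without satellite cells replicate 2 (-4.08, 0.0263) and in DESeq2 (0.0270).

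Vgll2, the skeletal muscle member of the Vgll family, rose from few counts in +Dox to moderate levels in satellite cells. Vgll2 (chr10:51742308-51748277, plus strand) had 11.3, 6.66 and 35.5 normalized counts in +Dox, 106.6 and 180.0 in -Dox, and 775.4, 611.2 and 742.5 in satellite cells. No 2 groups overlapped, and the +Dox values rest on 15, 9 and 39 counts. Its log2 fold changes were 3.01 in -Dox against +Dox (standard error 0.74, adjusted p = 0.0385), 5.32 in satellite cells against +Dox (standard error 0.77, adjusted p = 0.000623) and 2.31 in satellite cells against -Dox (standard error 0.78, adjusted p = 0.0418). The middle of these held without any 1 replicate, and was 6.29 without +Dox replicate 3. The call after Dox withdrawal was lost without +Dox replicate 1 (adjusted p = 0.126), +Dox replicate 2 (0.113), -Dox replicate 1 (0.0859), -Dox replicate 2 (0.207), satellite cells replicate 2 (0.0514) or satellite cells replicate 3 (0.0559), and in the fit of those 2 groups alone (0.0860). Without +Dox replicate 3 it was 3.98 (adjusted p = 0.0114). The call between satellite cells and -Dox was lost without +Dox replicate 1 (0.0552), -Dox replicate 1 (0.218), -Dox replicate 2 (0.126) or satellite cells replicate 1, 2 or 3 (0.0686, 0.0598 and 0.0734), and with library size as the only scaling (0.0536).

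The other 3 Vgll genes were read beside Vgll2. Vgll1 had no counts in any library. Vgll3 was lower in satellite cells, at a mean of 2247 normalized counts (SD 1094, n = 3), than in +Dox, at 7218 (SD 855, n = 3), and the log2 difference was -1.68 (adjusted p = 0.00388). Its mean after Dox withdrawal was 3745 (SD 39, n = 2), a difference of -0.95 from +Dox that did not pass (adjusted p = 0.191). Vgll4, which encodes a cofactor known to oppose Yap1, was higher in satellite cells than in +Dox by 2.17 (adjusted p = 0.00201) and than in -Dox by 1.89 on the log2 scale (adjusted p = 0.00975).

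Of the 3 target genes, Ankrd1 had its highest values in -Dox, and Ctgf and Cyr61 had theirs in satellite cells. Ankrd1 was the most abundant member per kilobase of exon in both iPax7 groups, with means of 6296 normalized counts per kb (SD 241, n = 3) before and 44262 (SD 3401, n = 2) after withdrawal. In satellite cells Cyr61 was the most abundant, at 22138 normalized counts per kb (SD 10197, n = 3), followed by Ankrd1, whose values overlapped those of the next gene, Ctgf. Tead3 was the least abundant member in both iPax7 groups, with values that overlapped those of Vgll2 in +Dox, and Tead4 was the least abundant in satellite cells.

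Ankrd1 rose on Dox withdrawal and was lower in satellite cells than in -Dox. Ankrd1 (chr19:36186455-36194334, minus strand) had 10627, 11422 and 11291 normalized counts in +Dox, 82367 and 73877 in -Dox, and 20679, 8317 and 22032 in satellite cells. The -Dox values stood above all others, and satellite cells replicate 2 lay below the +Dox replicates while the other two lay above them. Withdrawal raised it by 2.81 on the log2 scale (standard error 0.38, 7.03-fold, adjusted p = 0.00213), and satellite cells differed from -Dox by -2.20 (standard error 0.37, adjusted p = 0.00164). Both calls held without any 1 replicate. Against +Dox the satellite cell difference was 0.61 (standard error 0.34, adjusted p = 0.162), and 0.95 without satellite cells replicate 2 (adjusted p = 0.00785).

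Ctgf was low in both iPax7 groups and high in satellite cells. Ctgf (chr10:24315248-24318489, plus strand) had 189.3, 222.9 and 260.4 normalized counts in +Dox, 312.5 and 120.0 in -Dox, and 8022, 25443 and 4215 in satellite cells. The 2 -Dox values lay on either side of the +Dox values, and replicate 2 stood above the other satellite cell values. Satellite cells were higher by 5.81 on the log2 scale against +Dox (standard error 0.73, 56.0-fold, adjusted p = 0.000283) and 5.86 against -Dox (standard error 0.88, adjusted p = 0.000917), and -0.05 between -Dox and +Dox (interval -1.57 to 1.47, adjusted p = 1). Without satellite cells replicate 2 the satellite cell differences were 4.77 against +Dox and 4.83 against -Dox, and the latter was 6.71 without -Dox replicate 1. The call held in each case. Satellite cells replicate 2 had the most Ctgf and also the highest endothelial marker sum of the 3 (23119.6). Of those markers Pecam1, Cdh5, Kdr and Tek were highest in replicate 2, and Egfl7 and Emcn were lowest there. Replicate 3 had less Ctgf than replicate 1 but the larger endothelial sum, 20900 against 17819.6. The sums of fibroblast and pericyte markers were highest in replicate 2 too, each mainly through 1 gene. These were Dpt (50285 normalized counts against 9349 and 13065 in replicates 1 and 3) and Rgs5 (18483 against 10275 and 9683). Pdgfra (245.3 against 176.4 and 216.3) and Myh11 (2194 against 897.8 and 732.0) were also highest there. The other fibroblast and pericyte markers were not. The part of those cells in the Ctgf value was not tested.

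Cyr61 was abundant in iPax7 cells and higher still in satellite cells. Cyr61 (chr3:145309935-145312949, minus strand) had 3962, 4119 and 3937 normalized counts in +Dox, 2423 and 2694 in -Dox, and 68489, 36292 and 29908 in satellite cells. The 3 groups did not overlap. Satellite cells exceeded +Dox by 3.49 on the log2 scale (standard error 0.34, 11.2-fold, adjusted p = 7.2e-05) and -Dox by 4.13 (standard error 0.41, 17.5-fold, adjusted p = 0.000127), and both calls held without any 1 replicate. Both -Dox replicates lay below the +Dox replicates, but the log2 difference of -0.65 did not pass (standard error 0.35, adjusted p = 0.330). Satellite cells replicate 1, the highest for Cyr61, also had the highest sum of immediate early and stress genes, 1002232 normalized counts. The other replicates did not keep that order. Replicate 2 had more Cyr61 than replicate 3 but the lower sum of these genes, 395972 against 596219. The part of those genes' change in the Cyr61 value was not tested.

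**Figure D3:**
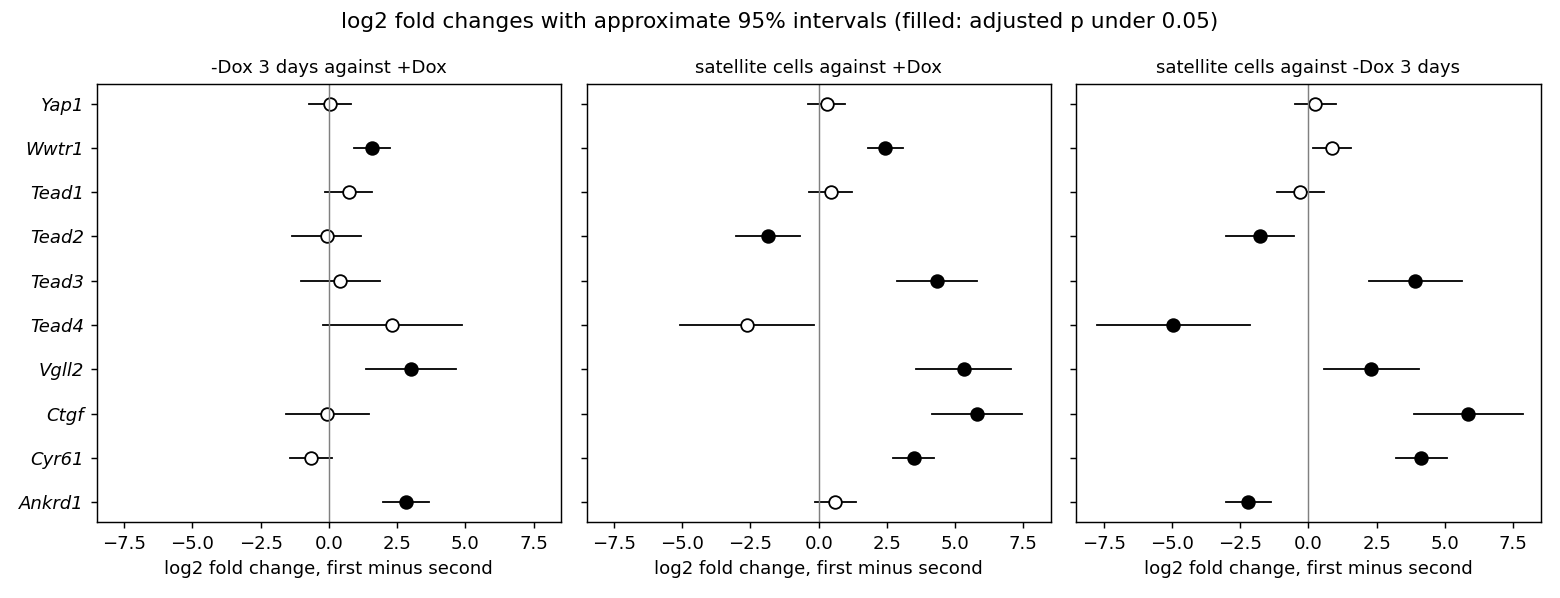
Points give the log2 fold change of each member in the 3 comparisons named above the panels, as the first group minus the second, with lines for approximate 95% intervals and filled points for an adjusted p under 0.05. Wwtr1, Vgll2 and Ankrd1 are filled on the left, and Ankrd1 lies at 2.81 there and at -2.20 on the right.

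The rest of the pathway was read from lists of known components. None of the 11 core kinases and adaptors was called in -Dox against +Dox by edgeR. One had an unadjusted p under 0.05, and DESeq2 called 1, higher. In satellite cells, 6 of 11 were called higher than in +Dox and 6 higher than in -Dox, and none lower, where 25.1% and 20.9% of all genes were called higher, with a median log2 fold change of 0.82 beside 0.17 for all genes and of 0.77 beside 0.23. Among them were Lats1 and Lats2, the kinases that phosphorylate Yap1 and Taz, at 1.43 (adjusted p = 0.0271) and 1.31 (0.00344) against +Dox. Mob1a, their co-activator, was at 1.37 (0.0448) and the upstream kinase Taok3 at 1.71 (0.0150). With library size as the only scaling, which shifts the median of all genes in satellite cells against +Dox from 0.17 to -0.20, 2 of the 11 were called against +Dox and 4 against -Dox. The count against +Dox was between 2 and 4 when any 1 of the 8 replicates was left out, and 3 in the fit of those 2 groups alone. The count against -Dox was 2 without -Dox replicate 1, 1 without -Dox replicate 2, 3 without +Dox replicate 2 or satellite cells replicate 2, and between 4 and 6 without any other.

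Of the 17 upstream and junctional regulators, none was called in -Dox against +Dox by edgeR. There 6 had an unadjusted p under 0.05, and DESeq2 called 4, 2 in each direction. Satellite cells had 6 called higher and 1 lower than +Dox, or 4 and 3 with library size as the only scaling, a share near the 44.9% of all genes called. The list's median log2 fold change was 0.84 beside 0.17 for all genes. Frmd6, a FERM-domain activator of the pathway, was higher by 2.49 on the log2 scale (adjusted p = 0.000971), Limd1, a LIM protein that restrains Lats kinases, by 2.48 (0.000591), and the giant cadherin gene Fat4 by 4.92 (0.0474). Ajuba, another LIM protein of the same family, fell by 3.80 on the log2 scale (0.0169). Fat4 had 0, 0 and 57.4 normalized counts in +Dox, so the size of its difference is uncertain. Against -Dox, 5 were higher, Frmd6 (3.85), Limd1 (2.49) and Wwc2 (2.33) among them, and 2 lower, including Ajuba (-3.13), a share near the 39.0% of all genes called, with a median of 0.26 beside 0.23. Without -Dox replicate 1 or -Dox replicate 2, 3 were higher and none lower.

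The 22 other genes known as targets of Yap1 and Taz went both ways in each comparison. After Dox withdrawal 3 were called higher and 4 lower, beside 4.66% and 3.04% of all genes, with a median log2 fold change of -0.33 beside -0.00. The 4 lower calls became 1 without +Dox replicate 1, +Dox replicate 2 or -Dox replicate 1, and none without -Dox replicate 2. Tgfb2, a secreted growth factor, rose by 2.76 (adjusted p = 0.00181) and the matrix gene Ccdc80 by 2.41 (0.00468), while Birc5, which acts in mitosis, fell by 3.60 on the log2 scale (0.0137) and the matricellular gene Thbs1 fell by 1.77 (0.0202). Satellite cells had 8 higher and 5 lower than +Dox, beside 25.1% and 19.8% of all genes, with a median of -0.20 beside 0.17. Nt5e (7.65, adjusted p = 0.00395) and Ccdc80 (5.09, 2.49e-05) were higher, and Myof, a membrane repair gene, (-5.47, 0.000154) and Dock5 (-4.95, 0.00128) were lower. Nt5e had 15.0, 0 and 0 normalized counts in +Dox, so the size of its difference is uncertain. Against -Dox, 8 were higher and 2 lower, a share near the 39.0% of all genes called, with a median of 0.26 beside 0.23. Those lower were again Myof (-5.10) and Dock5 (-3.40). Without -Dox replicate 1 or -Dox replicate 2, 4 were higher. Lats2, Amotl2, Fjx1 and Ptpn14 stand in this list and in 1 of the 2 lists of regulators.

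Chromatin at the members' start sites was read from the deposited peak sets, each of which gives 1 set of regions per condition, so no test was made. ATAC-seq and histone mark peaks were called on merged replicates. Pax7 sites were called per replicate and kept where at least 2 +Dox replicates and no -Dox replicate had them. Within 1 kb of an annotated start site, all 10 members had an ATAC-seq peak (open chromatin, cut by the Tn5 transposase) in +Dox, 12 h, 24 h and 3 days after Dox withdrawal, where 65.5%, 63.6%, 66.8% and 68.2% of 20660 genes had one. In satellite cells 9 of 10 had one, beside 60.7% of genes. The exception was Tead2, the member called lower in satellite cells against both iPax7 groups, and a peak was present within 5 kb. The satellite cell set is the smallest, with 73512 regions against 97637 to 145880. All 10 members carried H3K4me3, a mark of active or poised promoters, in +Dox and in -Dox, where 62.7% and 68.7% of genes carried it. All 10 also carried H3K4me1 in +Dox and in -Dox, beside 64.2% and 67.7% of genes. All 10 members passed the filter on low counts, while the 20660 genes also include genes that did not. A gene with more annotated start sites, such as Tead2 with 12, also had more places for a peak to count. The shares here and below are therefore not of like genes.

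Vgll2 stood apart in its histone marks. It was the 1 member with no H3K27Ac peak, a mark of active elements, in +Dox or in -Dox, where 50.2% and 47.1% of genes had one. It was also the 1 member with the Polycomb mark H3K27me3 in both, where 23.2% and 21.2% of genes had it. Its RNA was at 6.66 to 35.5 normalized counts in +Dox and 106.6 to 180.0 in -Dox. Ctgf had an H3K27me3 peak in +Dox and none in -Dox, at 224.2 and 216.2 normalized counts on average. Within 5 kb, 4 members in +Dox and 3 in -Dox had H3K27me3, beside 36.8% and 31.8% of genes.

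**Figure D4:**
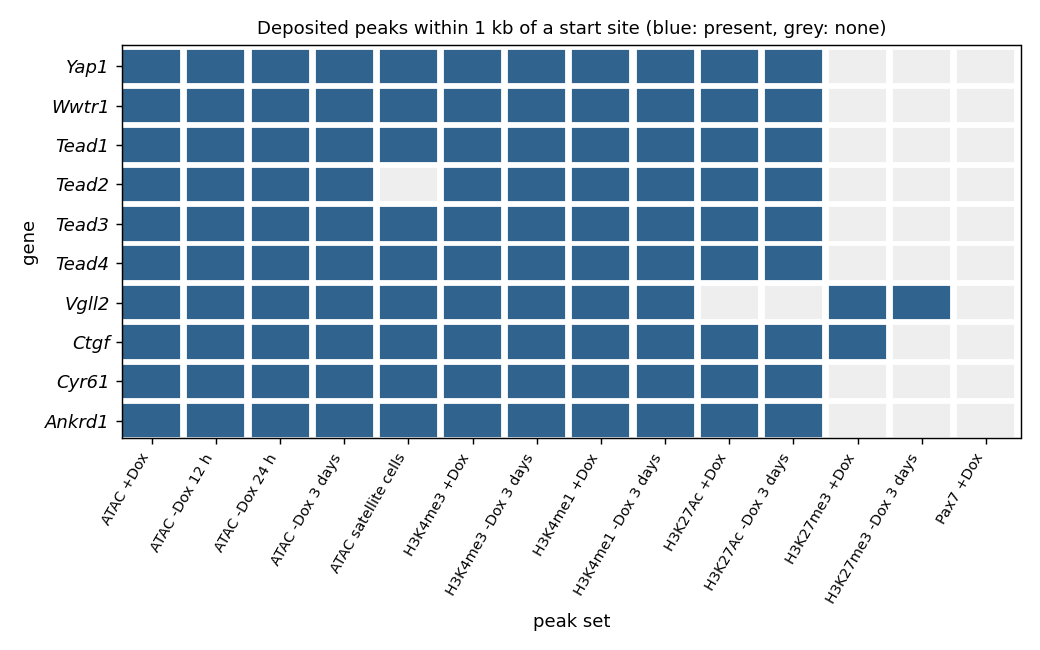
The grid gives, for each gene (rows) and deposited peak set (columns), whether a called peak lay within 1 kb of an annotated start site (blue) or none did (grey). The grey cells are Tead2 in ATAC-seq of satellite cells, Vgll2 in H3K27Ac, all but Vgll2 and Ctgf in H3K27me3 in +Dox, all but Vgll2 in H3K27me3 in -Dox, and all 10 genes for Pax7 sites.

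No member had a Pax7 binding site within 1 kb or 5 kb of a start site, where 1.6% and 2.8% of genes had one of the 2455 sites. Within 50 kb 2 of 10 members had one, beside 11.7% of genes, and the median distance over genes was 384 kb. The site nearest to Ankrd1, at chr19:36173335-36173817, lay 20.8 kb from its start site, and that nearest to Tead4, at chr6:128288895-128289407, lay 38.3 kb away. Another gene's start site was closer to each, Rpp30 and Tulp3. Both sites overlapped ATAC-seq peaks in +Dox and in -Dox at 3 days and none in satellite cells. The central 200 bases of the site nearest to Ankrd1, the member with the clearest change on Dox withdrawal, are printed from the forward strand with ATTA, the homeodomain core that Pax7 can bind, in capitals where it occurs on either strand.
Pax7 site near Ankrd1, chr19:36173476-36173675 of NCBIM37, plus strand: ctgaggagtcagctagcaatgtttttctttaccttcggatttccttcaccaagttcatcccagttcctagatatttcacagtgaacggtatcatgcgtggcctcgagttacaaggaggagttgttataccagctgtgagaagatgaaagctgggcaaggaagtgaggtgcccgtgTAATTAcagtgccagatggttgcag
It held 2 overlapping matches, and 72.1% of all Pax7 sites held at least 1 in a window of the same length.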

How the data were processed

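RNA-seq was deposited as HTSeq-style counts of reads per gene symbol, 1 file per replicate, which the authors did not normalize. The submitters' processing notes name TopHat2 2.0, Bowtie2 2.2, HTSeq 0.6 and mm9. Counting settings and strand are not given in the sources used here. Each replicate's counts were scaled to a common effective library size (TMM), and the result is called normalized counts. Genes were tested in edgeR 4.0.16 (R 4.3.3) with the quasi-likelihood test after filterByExpr, on all 8 replicates, with Benjamini-Hochberg adjustment over all genes and a threshold of 0.05. Standard errors and intervals are approximate, from the fold change and its F statistic. Alternatives used other scalings, no filter, DESeq2 1.42.0, fewer groups, a replicate block and each replicate left out. Levels per kilobase used merged GENCODE M1 exons on NCBIM37 (20660 symbols matched). The authors deposited ATAC-seq peaks with −log10 q values from MACS2 2.0.10, and ChIP-seq regions as coordinates from Qeseq, on mm9. Replicates were merged for ATAC-seq and histone marks but not for Pax7. Scripts were tested on simulated data. Peaks from C2C12 cells and myotubes were not used here. Named genes were the members, and of each list the called genes with the largest change, up to 4 per comparison, and for each member the 3 most alike genes. The search for ATTA was added after the data were seen. Members, lists and tests were chosen with earlier results of these data known. One marker list of another cell type is not reported here.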

Additional observations from a re-analysis of the deposited data

How the results depend on the processing

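Of 420 estimates for members under 14 alternatives, 375 kept their direction and their side of the threshold, 27 fell short of it, 9 newly passed and 9 reversed. With library size as the only scaling, Yap1 was -0.18 in -Dox against +Dox and -0.11 in satellite cells against +Dox. Leaving out 1 replicate gave, in -Dox against +Dox, between -0.047 and 0.15 for Yap1, between -0.20 and 0.19 for Tead2, between -0.90 and 0.49 for Ctgf and between -0.0035 and 0.76 for Tead3, and in satellite cells against -Dox between -0.011 and 0.47 for Yap1. None of these reached the threshold. The number of members called ran from 1 to 4 after Dox withdrawal, from 5 to 7 in satellite cells against +Dox and from 5 to 8 against -Dox when 1 replicate was left out. The cause was not tested, beyond there being fewer samples. In -Dox against +Dox, 16.3% of all genes were called in the fit of those 2 groups alone and by DESeq2, against 7.70%. Without -Dox replicate 1 or replicate 2 it was 3.22% or 3.09%. In that comparison 60.5% of the genes called were higher, and 48.3% with library size only, and in satellite cells against +Dox 55.8% and 43.4%. Library size only moved the median of all genes to -0.22 and -0.20 in these comparisons. Replicate numbers did not pair the samples, with correlations of deviations between -0.04 and 0.03 for samples of the same number. With the replicate block, Vgll2 was 3.62 in -Dox against +Dox (adjusted p = 0.0564), and Tead2 and Vgll2 lost their calls in satellite cells against -Dox (0.0570 and 0.0902). Low counts limit Tead3 and Vgll2 in +Dox and Tead4 in satellite cells. They also limit Nt5e and Fat4 in +Dox.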

Other observations

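For each member, the genes whose log2 levels followed it most closely over the 8 replicates were listed among 11356 genes with a mean of at least 100 normalized counts. The 8 points fall into 3 groups, so r mostly follows the group means, and it is given as a description. Wwtr1 was most like Mylk, the myosin light chain kinase gene (Pearson r = 0.994), Runx1 (0.990) and Pdp1 (0.9885). Vgll2 was most like Arhgap23 (0.993), Myl9, a smooth muscle myosin light chain (0.993), and Lzts3 (0.990). Tead4 was most like Cct7 (0.994), Chrnd, a subunit of the muscle acetylcholine receptor (0.993), and Frem2 (0.992). Ankrd1 was most like Sorbs2, which encodes a Z-disc and adhesion protein (0.986), Tmem40 (0.977) and Fam134b (0.974). Ctgf was most like Ptbp2 (0.991), Anxa5 (0.989) and Cldn5, an endothelial tight junction gene (0.988). Cyr61 was most like Gpr137b-ps (0.997) and Psd (0.994), with the stress-response gene Gadd45b next (0.994). Tead3 was most like Rbms1 (0.996) and Tead2 like Entpd7 (0.989). Tead1 and Yap1 had weaker matches, Usp47 (0.975) and 3110056K07Rik (0.929).

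Accessible regions within 50 kb of a member's gene were also counted. Tead4 had 22 ATAC-seq regions in +Dox, 25 at 12 h, 26 at 24 h and 29 at 3 days after Dox withdrawal, and 12 in satellite cells. Tead2 had 10 at each iPax7 time and 3 in satellite cells. Vgll2 had 8 in +Dox, 9 at 3 days and 13 in satellite cells, although the satellite cell set is smaller. Vgll2 was not alone in this. Tead1 had 31 in +Dox and 39 in satellite cells, Ctgf 8 and 11, Ankrd1 8 and 10, and Wwtr1 24 and 25. In the same order, counts were lower in satellite cells for Yap1 (14 and 11), Tead3 (10 and 7) and Cyr61 (14 and 12). Around Tead4, H3K27Ac regions numbered 30 in +Dox and 50 in -Dox, and around Ankrd1 36 and 24. They were also more numerous in -Dox around Tead1 (95 and 118), Cyr61 (20 and 23), Ctgf (3 and 4) and Vgll2 (2 and 3). They were fewer around Yap1 (36 and 19), Wwtr1 (45 and 43), Tead2 (6 and 5) and Tead3 (21 and 20). The whole H3K27Ac set went from 119528 to 90168 regions and the ATAC-seq set from 116140 in +Dox to 145880 at 3 days, with 73512 in satellite cells. The H3K27Ac count near Ankrd1 and, from +Dox to 3 days, the ATAC-seq count near Tead4 moved in the same direction as their sets. All are descriptions with no test.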
